A study of Mus musculus with 10 samples.

Results

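The genes described here encode proteoglycan core proteins and the enzymes that build, sulfate and trim their sugar chains. They were taken by gene symbol, from families chosen with earlier results of these data known. These families are the glypicans (*Gpc*), syndecans (*Sdc*), testicans (*Spock*), exostosins (*Ext*, *Extl*), xylosyltransferases (*Xylt*), heparan sulfotransferases (*Ndst*, *Hs2st*, *Hs3st*, *Hs6st*), carbohydrate sulfotransferases (*Chst*), chondroitin N-acetylgalactosaminyltransferases (*Csgalnact*), extracellular endosulfatases (*Sulf*) and heparanase (*Hpse*). The table of 20974 genes held 50 of them, and 43 passed a filter on low values (an average of 15 or more normalized counts in either genotype) and were tested among 15603 genes. The chondroitin arm had 9 members (8 tested). The heparan arm had 30 (27 tested), of which 20 were enzymes (17 tested) and 10 were core proteins (all tested). A further 5 members, the 3 testicans and the 2 xylosyltransferases, serve either arm or cannot be given to 1 of them, and 6 *Chst* genes act on other sugar chains (3 tested). *Chst13*, *Hs3st5*, *Hs3st6*, *Hs6st3*, *Chst5*, *Chst8* and *Chst9* fell below the filter and gave at most 20.9 normalized counts in any embryo. *Chst4*, *Hpse2*, *Hs3st2*, *Hs3st4* and *Ndst4* were not analysed here.

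Transcriptomes were of single mouse embryos at E7.5, labelled as strain CD1 and from a colony that the study kept on a mixed background, 5 *Rreb1*-/- and 5 *Rreb1*+/+ (replicates 2 to 6 of each), all bred from *Rreb1*+/- intercrosses and sequenced without the parietal endoderm, which had been taken for genotyping. The mutants carried a CRISPR deletion of most of the coding sequence in exon 6. The study made 2 such lines, with a larger and a smaller deletion, and combined their data, and the mutants were smaller and developmentally delayed. Values are read counts of a gene scaled by the embryo's size factor (normalized counts). The comparison asked which of these genes differ in the absence of the transcription factor RREB1, which the study examined in relation to epithelial architecture and invasion. *Rreb1* itself gave 3988.4 to 5715.1 normalized counts in mutants against 2365.0 to 2924.2 in *Rreb1*+/+ embryos (log2 fold change 0.91 ± 0.10, SE), and a count over the whole gene does not check a deletion within it.

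Proteoglycans are core proteins that carry long, sulfated glycosaminoglycan chains. Both main kinds of chain start from the same linkage sugars, laid down by the xylosyltransferases and their partners. The next sugar decides the arm: N-acetylgalactosamine leads to chondroitin and its relative dermatan sulfate, and N-acetylglucosamine leads to heparan sulfate. Sulfotransferases then add sulfate at defined positions, which sets which proteins the chain binds. In the early embryo heparan sulfate on glypicans and syndecans holds and presents growth factors of the FGF, BMP and WNT families, and proteoglycans are a main part of basement membranes.

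The libraries held 31467767 to 35446574 reads in genes in mutants and 33317560 to 35786876 in *Rreb1*+/+ embryos. Replicates 5 and 6 of both genotypes stood apart from replicates 2 to 4 on the first principal component (37.0% of the variance). Mutant replicates 3 to 6 carried Y-linked transcripts (5849.1 to 9171.5 summed over 4 genes), while mutant replicate 2 and all *Rreb1*+/+ embryos had at most 3.8, so that sex and genotype were nearly confounded. Mutant replicates 2 and 6 had the highest summed parietal endoderm markers (124030 and 135204, against 64159 to 68830 in the other mutants and 65733 to 84538 in *Rreb1*+/+ embryos) and the highest summed decidua markers (2235 and 1890, against 770 to 1179 and 669 to 1268). Of these decidua sums, *Igfbp1* alone gave 1613.8 and 682.2. *Hand2*, another decidua marker, was the lowest of all embryos in mutant replicate 2 (85.8) and the highest in mutant replicate 6 (515.3). Of 12 parietal endoderm markers tested 1 was called (*Plat*, higher), and of 7 neurectoderm markers 2 (*En1*, higher, and *Nes*, lower). Markers of epiblast, primitive streak and mesoderm, visceral endoderm, extraembryonic ectoderm and trophoblast, decidua, blood and endothelium had 0 called. No marker on these lists was at 0 in every embryo, and summed blood markers were 1252 to 4076 in mutants against 2098 to 13310 in *Rreb1*+/+ embryos. In whole embryos, fewer cells of a type and less RNA per cell cannot be told apart. Each embryo was its own library, and nothing in the labels says whether replicates shared a litter.

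Of the 43 members tested, 5 were higher in mutants and 0 were lower (limma, adjusted p under 0.05 over all genes tested). They were *Chst11*, a chondroitin 4-O-sulfotransferase, *Hpse*, which encodes heparanase, *Spock3*, a testican, *Extl2*, an exostosin-like glycosyltransferase, and *Hs3st3b1*, a heparan 3-O-sulfotransferase. That is 11.6% of the members tested, where 3.11% of all genes tested were higher and 1.15% were lower. The study had already reported *Hpse*, *Spock1* and *Spock3* as upregulated in these embryos, and the families were chosen with earlier results known. These shares are therefore a description and no test of the set. At an unadjusted p under 0.05, 10 members were higher and 1, *Hs6st1*, was lower, beside 9.74% and 8.21% of all genes tested. Among the 10 was *Gpc5*, which passed the filter only through the mutants (mean 15.3, against 8.91 in *Rreb1*+/+ embryos). No member was called lower in edgeR or DESeq2 either. The mutants lay above every *Rreb1*+/+ embryo for 7 members and below every one for 0, beside 4.24% and 2.46% of all genes tested. The median log2 fold change was 0.13 over the members and −0.016 over all genes tested, and 25 members were positive and 18 negative.

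**Figure D1:**
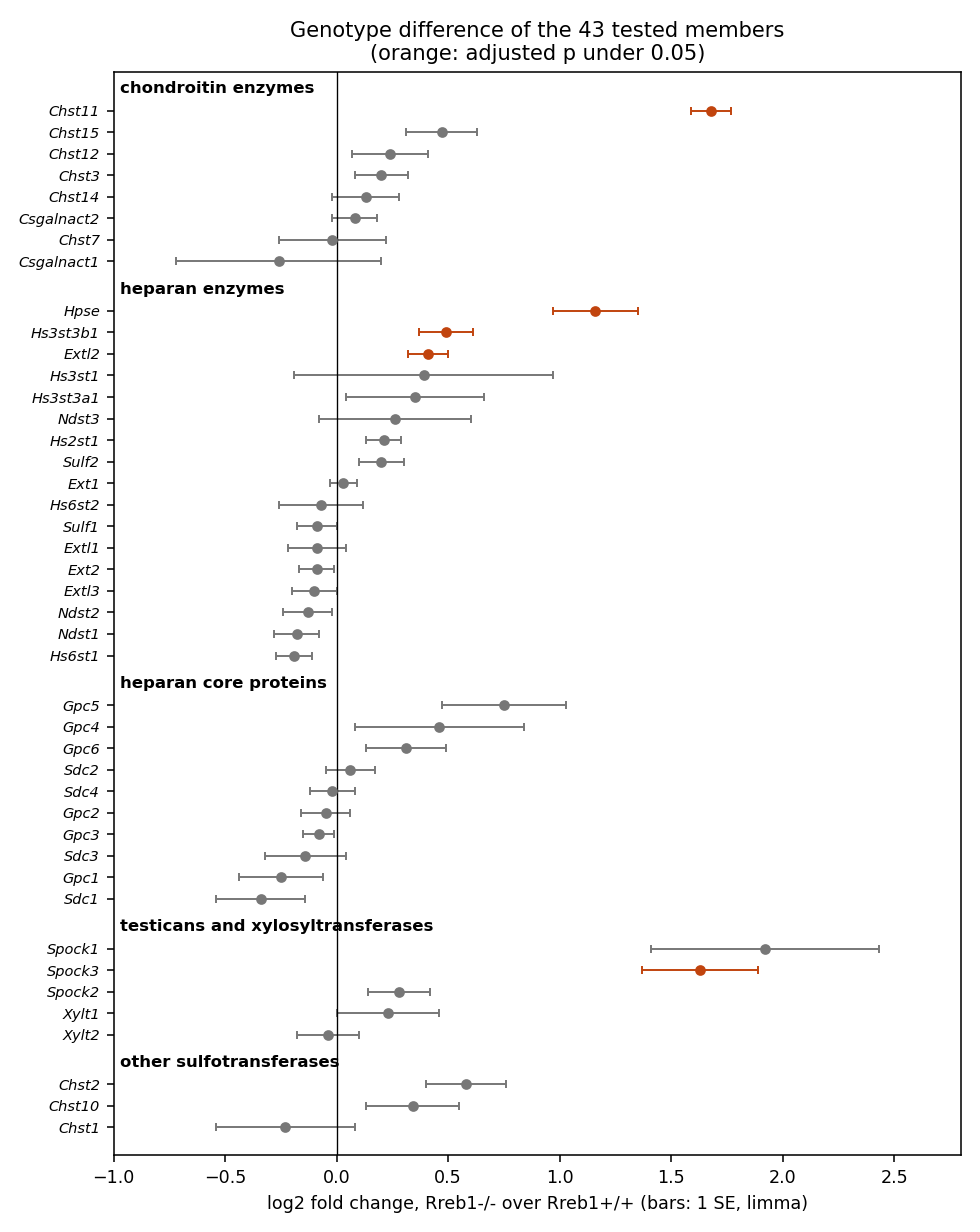
Log2 fold change of each tested member, *Rreb1*-/- over *Rreb1*+/+, with 1 SE from limma (x axis), sorted within 5 groups (y axis). The 5 members in orange were called, *Chst11* with the smallest error among the members above 1, and *Spock1* has the largest value (1.92) but a wide error.

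In the chondroitin arm 1 of 8 tested members, a single gene, rose and 0 fell, beside 3.11% and 1.15% of all genes tested. *Chst11* adds sulfate to the 4-O position of N-acetylgalactosamine, and lies on chromosome 10 at 82985498 to 83195900 (GRCm38, plus strand). It gave 1287.4, 1002.7, 907.9, 1025.0 and 1120.3 normalized counts in mutant replicates 2 to 6, against 333.9, 334.3, 315.1, 339.0 and 327.8 in *Rreb1*+/+ replicates 2 to 6. The genotypes were far apart, and the *Rreb1*+/+ embryos were nearly alike, with a mean of 330 ± 9.25 (SD, n = 5). The log2 fold change was 1.68 ± 0.09 (SE), or 3.21-fold (2.81 to 3.66 at 2 SE either side), with an adjusted p of 5.7e-06 in limma. Its exact two-sided permutation p was 0.00794, the smallest that 5 against 5 embryos can give. By p-value it ranked 4 among the 15603 genes. *Chst11* was called in all 24 alternatives, with log2 fold changes of 1.56 to 1.98. The mutant without Y-linked transcripts, replicate 2, had the highest value of all. It is 1 embryo and was also high in summed parietal endoderm markers (124030), and the part of sex was not tested apart from genotype.

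Neither of the other tested 4-O-sulfotransferases was called, and their difference from *Chst11* in the size of the change was not tested. *Chst12*, which acts on the same position of chondroitin, gave 379.3, 551.8, 320.7, 538.1 and 553.9 normalized counts in mutants against 332.0, 395.5, 478.3, 342.8 and 409.8 in *Rreb1*+/+ embryos, and the genotypes overlapped (log2 fold change 0.24 ± 0.17, adjusted p 0.520 in limma). *Chst14*, the dermatan 4-O-sulfotransferase, gave 318.9, 324.2, 300.5, 441.4 and 477.7 against 280.2, 324.3, 316.0, 406.2 and 358.0 (0.13 ± 0.15, adjusted p 0.709). At 2 SE either side their fold changes ran from 0.926 to 1.5 and from 0.883 to 1.36. Per kilobase of exon, *Chst11* averaged 193 normalized counts in mutants, beside 198 for *Chst12* and 178 for *Chst14*. In *Rreb1*+/+ embryos it averaged 59.7, beside 166 and 161. *Chst11* therefore made up 29.5 to 42.4% of the summed 4-O-sulfotransferase level (*Chst11* to *Chst14*) per kilobase in mutants and 13.7 to 17.5% in *Rreb1*+/+ embryos, a share that follows from the same *Chst11* values and was not tested.

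Of the 5 remaining chondroitin enzymes tested, 0 were called in limma. *Chst15*, which adds a further sulfate to the 4-O-sulfated sugar, averaged 945 ± 239 normalized counts in mutants and 665 ± 67.0 in *Rreb1*+/+ embryos (SD, n = 5 each), with 3 mutants above every *Rreb1*+/+ embryo (log2 fold change 0.47 ± 0.16, adjusted p 0.154 in limma). It was called by DESeq2 (adjusted p 0.0416) and in limma without mutant replicate 3. The 6-O-sulfotransferases *Chst3* and *Chst7* had log2 fold changes of 0.20 ± 0.12 and −0.02 ± 0.24. *Csgalnact1* and *Csgalnact2*, which commit the chain to chondroitin, had −0.26 ± 0.46 and 0.08 ± 0.10.

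**Figure D2:**
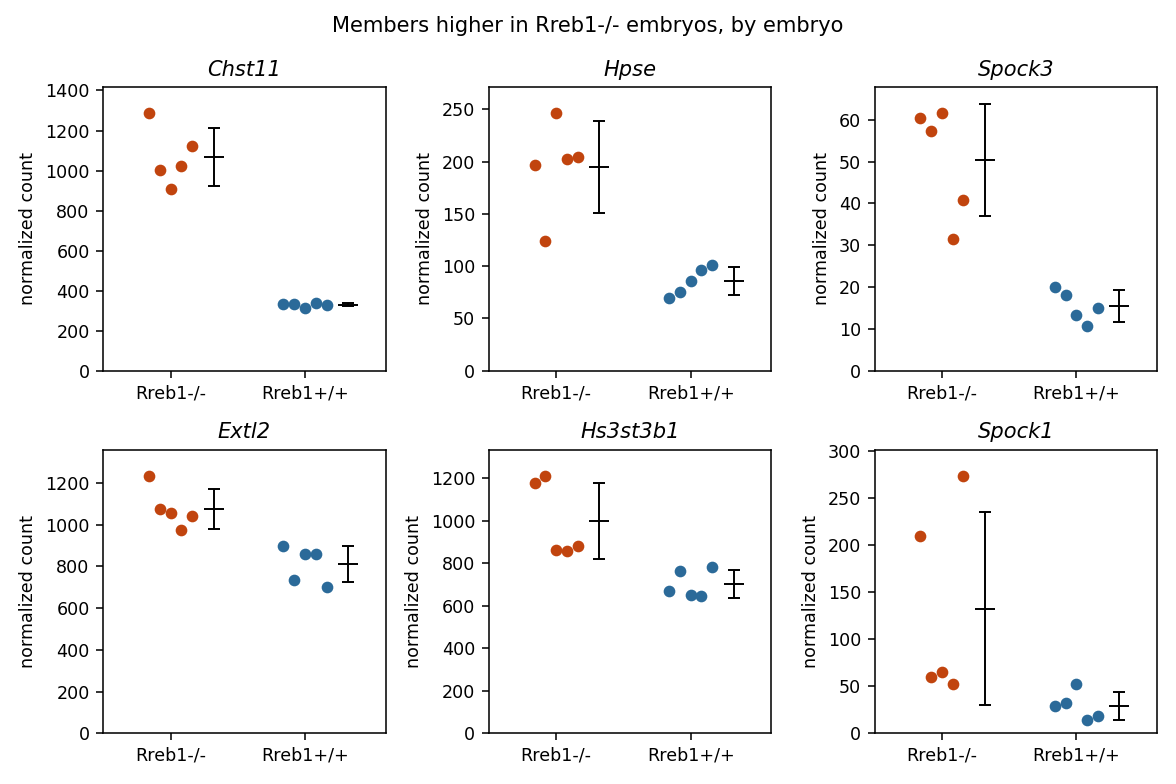
Normalized counts (y axis, from 0) in each *Rreb1*-/- (left, orange) and *Rreb1*+/+ embryo (right, blue), replicates 2 to 6 from left to right, with the mean and SD beside them. In all 6 panels the lowest mutant lies above the highest *Rreb1*+/+ embryo, by a wide margin for *Chst11* (907.9 over 339.0) and a narrow one for *Spock1* (53.0 over 52.5).

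Among the heparan enzymes 3 of 17 tested members rose and 0 fell, beside 3.11% and 1.15% of all genes tested. The 3 belong to different steps. *Hpse* encodes heparanase, the endoglycosidase that cuts heparan sulfate chains. It gave 197.1, 123.7, 246.4, 202.6 and 204.4 normalized counts in mutants against 69.1, 75.3, 85.9, 96.0 and 100.8 in *Rreb1*+/+ embryos, with no overlap. The log2 fold change was 1.16 ± 0.19 (2.23-fold), with an adjusted p of 0.00564 in limma and an exact permutation p of 0.00794. *Hpse* remained called in 22 of 24 alternatives. It was not called when the Y-linked sum entered the fit (log2 fold change 1.18 ± 0.36, adjusted p 0.157), nor in replicates 5 and 6 alone (1.04, adjusted p 0.0934, where 0.529% of genes were called higher). The other extracellular remodelling enzymes are the 6-O-endosulfatases. *Sulf2* gave 4239.6, 5679.8, 4067.0, 4285.0 and 4350.7 in mutants against 3750.4, 4497.5, 3988.1, 3959.4 and 3426.1 in *Rreb1*+/+ embryos, overlapping (0.20 ± 0.10, adjusted p 0.319), and *Sulf1* had −0.09 ± 0.09.

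Of the exostosins, *Extl2* was the member that rose. It encodes an exostosin-like transferase that acts on the linkage region, which both arms share, and it was counted here in the heparan arm. It gave 1234.5, 1072.4, 1055.5, 974.8 and 1041.0 normalized counts in mutants against 897.1, 733.9, 859.3, 861.4 and 700.9 in *Rreb1*+/+ embryos, all mutants above all *Rreb1*+/+ embryos. The change was small, a log2 fold change of 0.41 ± 0.09 or 1.33-fold (adjusted p 0.0301 in limma), and it was called in 14 of 24 alternatives. Leaving out mutant replicate 2, 3 or 4, or *Rreb1*+/+ replicate 3, 5 or 6, ended the call (largest adjusted p 0.0829), while the log2 fold change stayed between 0.36 and 0.45 whichever embryo was left out. It was also not called with the Y-linked covariate (0.58 ± 0.16, adjusted p 0.141), without mutant replicates 2 and 6 together (0.36 ± 0.10, adjusted p 0.131), or within either replicate set alone. *Extl3*, which starts the heparan chain, gave 2729.6, 3805.2, 2653.6, 2980.2 and 2672.4 in mutants against 3340.7, 3211.5, 3019.0, 3220.9 and 3025.7 in *Rreb1*+/+ embryos. Mutant replicate 3 was the highest embryo of either genotype and the other 4 mutants were the lowest (−0.10 ± 0.10, adjusted p 0.612). *Ext1* and *Ext2*, which together form the polymerase, had 0.03 ± 0.06 and −0.09 ± 0.08. At 2 SE either side their fold changes ran from 0.947 to 1.11 and from 0.837 to 1.05.

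Of the 9 heparan sulfotransferases tested, *Hs3st3b1* rose. It adds the rare 3-O sulfate. It gave 1177.2, 1212.6, 862.2, 856.8 and 882.5 normalized counts in mutants against 670.6, 765.0, 653.1, 646.3 and 782.8 in *Rreb1*+/+ embryos. Mutant replicates 2 and 3 were the highest, and the others lay just above the *Rreb1*+/+ embryos (log2 fold change 0.49 ± 0.12, adjusted p 0.0451 in limma). It was called in 11 of 24 alternatives. The call was lost without mutant replicate 2, 3 or 4 or any 1 of the *Rreb1*+/+ embryos (log2 fold changes of 0.42 to 0.54 when leaving out 1 embryo, adjusted p up to 0.109), without mutant replicates 2 and 6 together (0.46 ± 0.13, adjusted p 0.135), and within either replicate set alone. With the Y-linked covariate it was 0.82 ± 0.19, a larger value with a larger error (adjusted p 0.0967). *Hs3st3b1* and *Hs3st3a1* encode nearly identical catalytic domains, so some reads may fit either gene, and how these were counted is not known. *Hs3st3a1* (21.2 to 58.4 normalized counts in mutants, 18.2 to 38.6 in *Rreb1*+/+ embryos) had 0.35 ± 0.31. *Hs6st1*, a 6-O-sulfotransferase, gave 1732.5, 1747.8, 1512.1, 2071.4 and 1722.1 in mutants against 1846.9, 2056.0, 1953.5, 2082.9 and 2047.0 in *Rreb1*+/+ embryos, with 4 mutants below every *Rreb1*+/+ embryo (−0.19 ± 0.08, adjusted p 0.243). *Hs2st1*, the 2-O-sulfotransferase, had 0.21 ± 0.08 (adjusted p 0.174), and *Ndst1* and *Ndst2*, which remove the acetyl group and add the first sulfate, had −0.18 ± 0.10 and −0.13 ± 0.11.

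**Figure D3:**
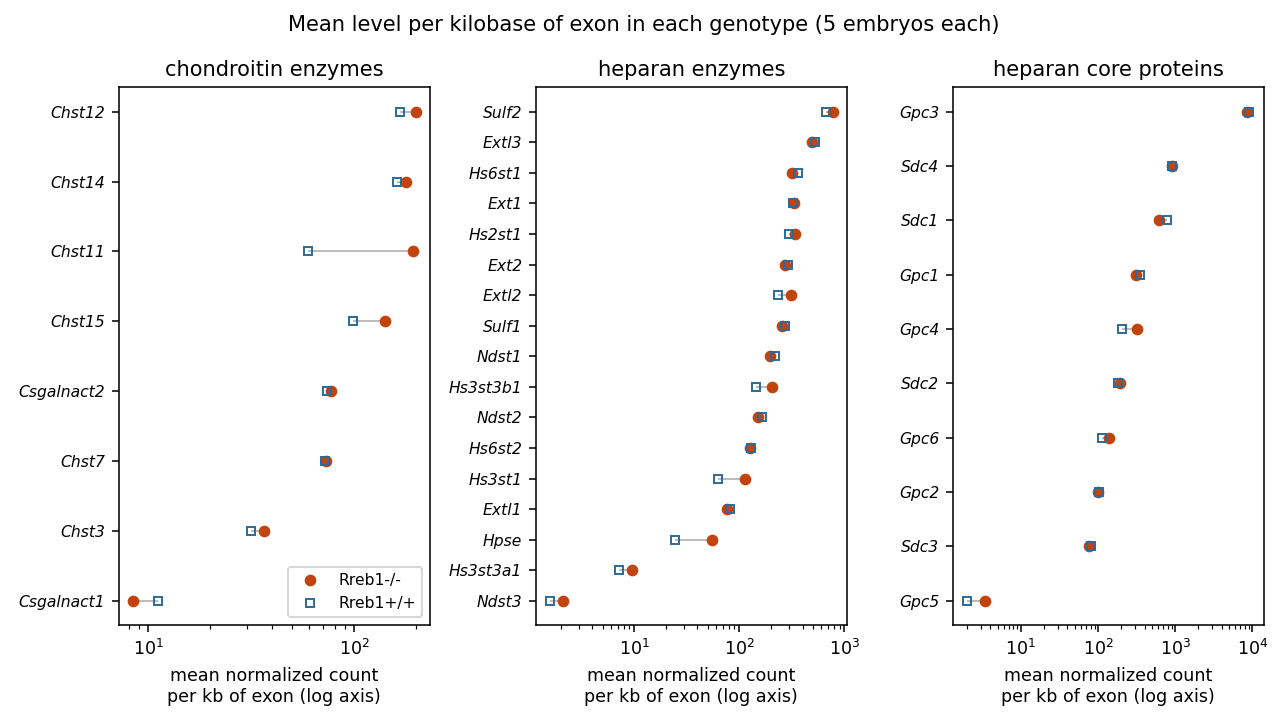
Mean normalized count per kilobase of exon (x axis, log scale) of each tested chondroitin enzyme, heparan enzyme and heparan core protein (y axis, by level), *Rreb1*-/- as filled circles and *Rreb1*+/+ as open squares. *Gpc3* is far above the rest at 8640 in mutants and 9160 in *Rreb1*+/+ embryos, and the widest gap between genotypes is that of *Chst11* (193 and 59.7).

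Among the heparan core proteins, which include the most abundant members per kilobase (*Gpc3* and *Sdc4*), 0 of the 10 tested were called in either direction (before adjustment, 1 was higher and 0 lower at p under 0.05, and 0 were called in edgeR and DESeq2). With the replicate set (2 to 4 or 5 and 6) as a term in limma 1 was called, *Gpc6*, where 4.83% of all genes were called higher. *Gpc6*, another glypican, gave 780.9, 773.1, 772.0, 1130.9 and 1043.1 normalized counts in mutants against 563.2, 710.8, 559.5, 929.6 and 892.1 in *Rreb1*+/+ embryos, and was named after its values were seen. The genotypes overlapped, but each mutant lay above the *Rreb1*+/+ embryo of the same number. Its log2 fold change was 0.31 ± 0.18 over all embryos (adjusted p 0.384 in limma), 0.31 ± 0.08 with the replicate set as a term (adjusted p 0.0425) and 0.31 ± 0.08 when blocked by replicate number (adjusted p 0.054). *Gpc3*, a lipid-anchored glypican encoded on the X chromosome, gave 23858.6, 21119.8, 24334.0, 21830.9 and 25114.6 normalized counts in mutants against 24082.6, 24948.3, 26500.9, 25409.1 and 22308.7 in *Rreb1*+/+ embryos. The genotypes overlapped, and the fold change was 0.943 (0.861 to 1.03 at 2 SE either side). *Sdc4*, a transmembrane syndecan, gave 2625.8, 2517.8, 2037.7, 2230.3 and 2166.5 in mutants against 2733.4, 2339.1, 2287.7, 2427.7 and 1958.4 in *Rreb1*+/+ embryos (fold change 0.987, 0.862 to 1.13). *Sdc1* had the lowest log2 fold change of all members, −0.34 ± 0.20 (adjusted p 0.393 in limma). It gave 1826.8, 2298.5, 1821.1, 2696.8 and 3223.2 in mutants against 3009.7, 2246.8, 2350.7, 3381.3 and 4062.0 in *Rreb1*+/+ embryos, and only mutant replicates 2 and 4 were below every *Rreb1*+/+ embryo. *Gpc1*, *Gpc2*, *Gpc5*, *Sdc2* and *Sdc3* had log2 fold changes of −0.25 to 0.75, the largest for *Gpc5*, which had at most 18.8 normalized counts in any embryo. *Gpc5* was the core protein that was higher before adjustment. It passed the filter only through the mutants (mean 15.3, against 8.91 in *Rreb1*+/+ embryos). The 4 X-linked members (*Gpc3*, *Gpc4*, *Chst7*, *Hs6st2*) had log2 fold changes of −0.08 to 0.46 and 0 were called.

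*Gpc4*, a glypican on the X chromosome, was named after its values were seen, because the mutants fell into separate levels. It gave 1299.1, 1103.5 and 1176.6 normalized counts in mutant replicates 2 to 4 and 375.4 and 336.9 in mutant replicates 5 and 6, against 522.9, 627.4 and 619.7 in *Rreb1*+/+ replicates 2 to 4 and 471.5 and 446.5 in replicates 5 and 6. The first 3 mutants were above every *Rreb1*+/+ embryo and the other 2 below every one. Over all embryos the log2 fold change was 0.46 ± 0.38 (adjusted p 0.564 in limma). In replicates 2 to 4 alone it was 1.02 ± 0.12 (adjusted p 0.00641, where 2.18% of genes were called higher), and in replicates 5 and 6 alone −0.37 ± 0.14 (adjusted p 0.413, where 0.134% were called lower). The genotype effect differed between these sets by −1.38 ± 0.18 on the log2 scale (interaction term, adjusted p 0.0325), a term that passed for 7 of 15603 genes (0.0449%). Summed epiblast markers were lower in replicates 5 and 6 of both genotypes (21153 and 17261, against 38409 to 54725 in the other mutants, and 21977 and 23092, against 37188 to 53628 in the other *Rreb1*+/+ embryos). In replicates 2 to 4 these sums overlapped between genotypes, while the *Gpc4* values did not. Primitive streak markers differed among themselves. *Eomes* gave 5857.6, 4821.4 and 4549.1 in mutant replicates 2 to 4 and 747.2 and 641.5 in 5 and 6. Its *Rreb1*+/+ values were 720.2 to 1927.7. *T* gave 4736.5 to 6693.0 in mutant replicates 2 to 4 and 6293.8 to 9627.0 in the same *Rreb1*+/+ replicates. The part of these markers in the *Gpc4* levels was not tested.

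The testicans are secreted, calcium-binding core proteins that can carry these chains. *Spock3* rose. It gave 60.4, 57.2, 61.6, 31.6 and 40.7 normalized counts in mutants against 20.1, 18.1, 13.4, 10.6 and 15.1 in *Rreb1*+/+ embryos, with no overlap and lower levels in mutant replicates 5 and 6 than in 2 to 4. The log2 fold change was 1.63 ± 0.26 (3.09-fold, 2.17 to 4.41 at 2 SE either side), with an adjusted p of 0.00425 in limma. The least covered embryo had 11 reads for it, so that *Spock3* was a low transcript in both genotypes. It was called in 22 of 24 alternatives, and not with the Y-linked covariate (2.01 ± 0.46, adjusted p 0.0911) or in replicates 5 and 6 alone (1.43, adjusted p 0.216). With the Y-linked covariate *Chst11* was the only member called, where 0.532% of genes were called higher. *Spock3* and *Hpse* in mutant replicate 2, whose Y-linked sum was 2.1, were 60.4 and 197.1, above every *Rreb1*+/+ embryo. This is 1 embryo, which was also high in summed parietal endoderm markers (124030), and the part of sex was not tested apart from genotype.

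*Spock1* had the largest difference of all members but missed the threshold. It is the only member on the chromosome of *Rreb1* (13), 19.5 megabases away, and any part of that linkage was not tested. It gave 209.8, 60.3, 64.8, 53.0 and 274.3 normalized counts in mutants against 28.8, 32.1, 52.5, 14.4 and 18.8 in *Rreb1*+/+ embryos. Mutant replicates 2 and 6 were far above the other 3, which were just above the highest *Rreb1*+/+ embryo (log2 fold change 1.92 ± 0.51, adjusted p 0.0614 in limma, exact permutation p 0.00794). It was called by edgeR (adjusted p 0.0482, where 3.24% of genes were higher) and by DESeq2 (adjusted p 0.00133, where 5.03% were higher), and in limma without mutant replicate 5 (adjusted p 0.0494) and with the replicate set as a term (1.92 ± 0.50, adjusted p 0.0435, where 4.83% were higher). *Hs3st1*, another heparan 3-O-sulfotransferase, had a like pattern, with 467.3 and 518.4 in mutant replicates 2 and 6, 53.0 to 126.4 in the other mutants and 95.4 to 212.0 in *Rreb1*+/+ embryos (0.39 ± 0.58). Both genes were named after their values were seen. Mutant replicates 2 and 6 were also the embryos with the highest summed parietal endoderm and decidua markers, the decidua sum of replicate 2 resting mostly on *Igfbp1*. The part of these markers in the result was not tested. With mutant replicates 2 and 6 left out, the log2 fold change was 1.12 for *Spock1* (adjusted p 0.209) and −0.60 for *Hs3st1* (adjusted p 0.529), while *Chst11* (1.56), *Hpse* (1.11) and *Spock3* (1.61) were still called, where 1.78% of genes were higher. *Spock2* had 0.28 ± 0.14, and the xylosyltransferases *Xylt1* and *Xylt2*, which add the first sugar of either chain, had 0.23 ± 0.23 and −0.04 ± 0.14.

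**Figure D4:**
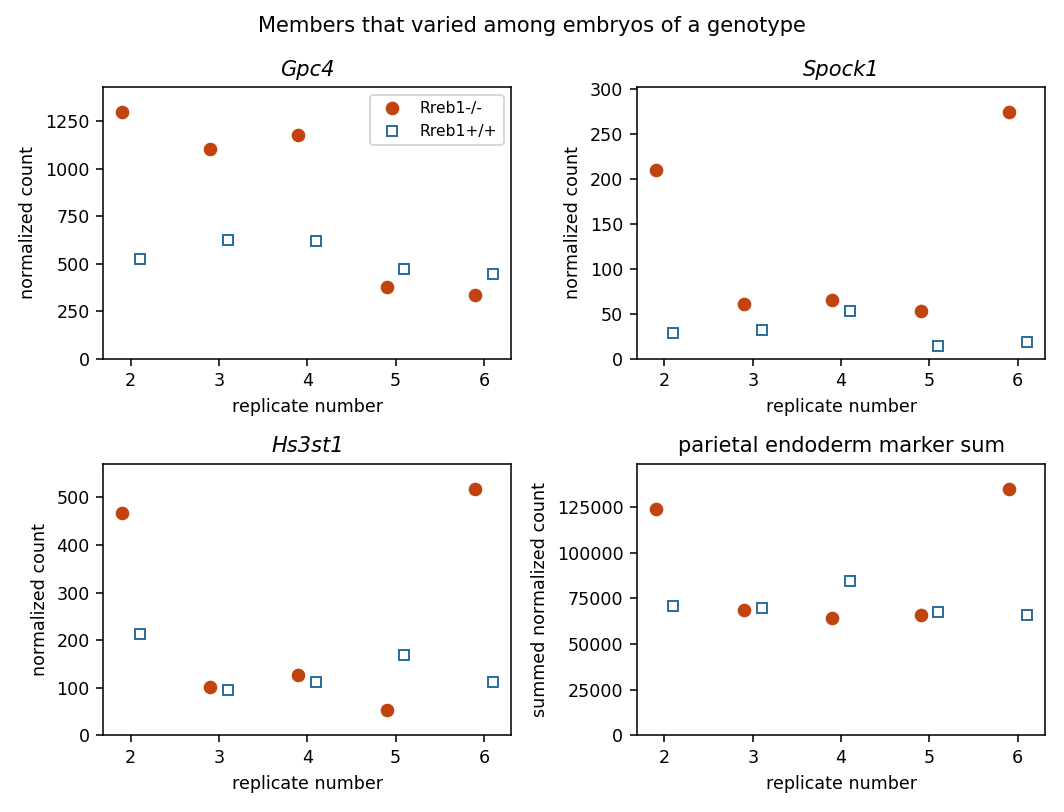
Normalized counts of *Gpc4*, *Spock1* and *Hs3st1* and the summed parietal endoderm markers (y axes, from 0) by replicate number (x axis), *Rreb1*-/- as filled circles and *Rreb1*+/+ as open squares. *Gpc4* is high in mutant replicates 2 to 4 (1103.5 to 1299.1), and the other 3 panels are highest in mutant replicates 2 and 6.

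Of the *Chst* genes that act on other sugar chains, 0 of 3 tested were called. *Chst2*, an N-acetylglucosamine 6-O-sulfotransferase, gave 397.4, 630.7, 523.5, 424.7 and 427.7 normalized counts in mutants against 228.3, 360.4, 390.5, 256.4 and 382.5 in *Rreb1*+/+ embryos, with no overlap (log2 fold change 0.58 ± 0.18, adjusted p 0.115 in limma). With the replicate number as a block it was called (adjusted p 0.0289, where 4.59% of genes were called higher). *Chst1*, the keratan sulfate galactose sulfotransferase, and *Chst10*, which makes the HNK-1 epitope, had −0.23 ± 0.31 and 0.34 ± 0.21. Over all tested members the mutants were more variable than the *Rreb1*+/+ embryos on the log2 scale in 34 of 43 cases (79.1%), beside 67.5% of all genes tested.

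Genes outside the symbol rule that work on the same chains were followed as 3 lists. Of 13 genes for the linkage region and chain assembly, 1 rose and 0 fell, beside 3.11% and 1.15% of all genes tested. Before adjustment, 3 were higher and 0 lower at p under 0.05 in limma, beside 9.74% and 8.21% of all genes tested. These were *Dse* (log2 fold change 0.25 ± 0.09), *Dsel* (0.24 ± 0.10) and *Ust*, the called gene. *Ust* encodes the uronyl 2-O-sulfotransferase, which sulfates chondroitin and dermatan sulfate. It gave 257.5, 160.0, 169.9, 226.7 and 191.9 normalized counts in mutants against 90.2, 83.3, 74.5, 143.1 and 133.8 in *Rreb1*+/+ embryos, without overlap (log2 fold change 0.96 ± 0.21, adjusted p 0.0284 in limma). *Ust* was not called after leaving out mutant replicate 2 or 5, or *Rreb1*+/+ replicate 2, 3 or 4 (largest adjusted p 0.0772). Nor was it called with the Y-linked covariate (1.38, adjusted p 0.126), in replicates 5 and 6 alone (0.59, adjusted p 0.322), or without mutant replicates 2 and 6, the embryos highest in parietal endoderm markers (0.85, adjusted p 0.141). Of 7 genes for the supply of activated sulfate, 0 were called (before adjustment, 3 were higher and 1 lower at p under 0.05, beside 9.74% and 8.21% of all genes tested). Of 15 tested genes for other core proteins, among them the basement membrane proteoglycans *Hspg2* (perlecan) and *Agrn* (agrin) and the chondroitin proteoglycan *Vcan* (versican), 0 were called, and before adjustment 0 were higher and 2 lower at p under 0.05, beside the same shares of all genes. The 2 lower were *Bcan* (log2 fold change −1.61 ± 0.72) and *Bgn* (−0.96 ± 0.39). *Hspg2* had −0.38 ± 0.23, *Agrn* −0.16 ± 0.12 and *Vcan* 0.06 ± 0.42.

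The sequences just before the start sites of *Chst11*, *Hpse* and *Spock3* are shown because these 3 members were called with changes of more than 2-fold. RREB1 binds Ras-responsive elements, and CCACCCC, a part of such elements, was searched on both strands in the 250 bases before each RefSeq start (GRCm38.p6). Matches are in capitals. *Hpse* held 2, and neither *Chst11* nor the upstream start of *Spock3* held any.
Chst11 (chr10:82985247-82985496, plus strand): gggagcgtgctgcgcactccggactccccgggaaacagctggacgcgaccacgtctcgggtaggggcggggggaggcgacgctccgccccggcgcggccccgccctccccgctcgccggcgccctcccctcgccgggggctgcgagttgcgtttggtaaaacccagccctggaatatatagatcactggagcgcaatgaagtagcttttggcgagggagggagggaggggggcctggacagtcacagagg
Hpse (chr5:100719717-100719966, minus strand): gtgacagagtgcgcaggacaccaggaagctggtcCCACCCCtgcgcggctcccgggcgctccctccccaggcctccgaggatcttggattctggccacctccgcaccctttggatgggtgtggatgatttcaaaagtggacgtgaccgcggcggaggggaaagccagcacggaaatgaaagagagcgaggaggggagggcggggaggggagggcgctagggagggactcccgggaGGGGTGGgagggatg
Spock3 (chr8:62950982-62951231, plus strand): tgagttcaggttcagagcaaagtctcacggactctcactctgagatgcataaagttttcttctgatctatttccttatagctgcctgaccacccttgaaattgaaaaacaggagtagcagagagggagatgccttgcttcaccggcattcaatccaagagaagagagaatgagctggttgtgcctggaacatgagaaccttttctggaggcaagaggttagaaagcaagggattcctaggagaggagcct
The *Chst11* stretch was 70.0% G and C with 26 CpG dinucleotides, the *Hpse* stretch 66.8% with 16, and the *Spock3* stretch 46.4% with 2. RefSeq promoters were found for 39 of the 50 members. Of these 10 (25.6%) held at least 1 match, beside 15.2% of the 27025 genes with a promoter in that table. *Extl2* and *Hs3st3b1* held 0. The member promoters were also richer in G and C, with a median of 63.6% against 52.4%, and a match in these letters is no evidence of binding.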

How the data were processed

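RNA was sequenced from 10 single E7.5 embryos with a stranded polyA kit. The authors aligned the reads with rnaStar in 2 passes, sorted them with Picard, took gene counts with HTSeq and scaled these with DESeq. The deposited signal is a gene's read count divided by 1 size factor per embryo. Not given in the sources used here are the genome build, the gene models, the versions and the use of strand. Dividing by each embryo's smallest step gave whole reads for 100% of values (within 0.1 read), and these were used for depth, edgeR (506 genes higher) and DESeq2 (785 higher). Positions and exon lengths came from GENCODE M21 (GRCm38) by gene identifier.

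Genes averaging 15 or more in either genotype entered limma 3.58.1 (R 4.3.3, variance trend) as log2(normalized count + 1), a scale that understates the change of low genes. P-values were adjusted over all 15603 genes (Benjamini-Hochberg), and genes were called under 0.05. The fit was tested on simulated data. Single members were also given an exact two-sided permutation test. Alternatives were edgeR 4.0.16, DESeq2 1.42.0, TMM, quantile normalization, pseudocounts of 0.5 and 5, other filters, the replicate number as a block, a Y-linked covariate, the replicate sets and leaving out embryos. The test between replicate sets and leaving out mutant replicates 2 and 6 were chosen after seeing the data. Same-numbered embryos of the 2 genotypes deviated together (correlation 0.253 to 0.459 over 5 pairs). The split of replicates 5 and 6 from 2 to 4 in both genotypes enters these correlations, so they do not show pairing by number. Of 10 embryos 3 were closest to their own number.

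Values in every embryo are given for each member called and for the 3 highest per kilobase of exon among chondroitin genes, heparan enzymes and heparan core proteins, and every called gene of the pathway lists described is named. A further pathway list is not reported here. *Spock1*, *Gpc4*, *Gpc6*, *Hs3st1* and *Chst2* were added after their values were seen. The members and lists were chosen with earlier results of these data known. Exons of *Hs3st3a1*, *Chst15*, *Gpc1*, *Gpc2*, *Gpc5*, *Hs6st1*, *Sdc3* and *Sulf2* overlap another gene, so some of their reads may fit either gene, and how these were counted is not known.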

Additional observations from a re-analysis of the deposited data

Results flagged for a closer look

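Mutant replicate 3 stood far from the other 4 mutants for *Sulf2* (5679.8 normalized counts, against 4067.0 to 4350.7 in the others) and for *Extl3* (3805.2, against 2653.6 to 2980.2). These were 2 of 46 groups of 5 embryos examined over 23 genes, and chance flags about 1 in 20. For *Gpc4* the genotype effect differed between replicates 5 and 6 and replicates 2 to 4, by −1.38 on the log2 scale, in a test chosen after the values were seen.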

How the results depend on the processing

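The count of 5 members higher, where 3.11% of all genes were higher, was 3 with an added 2-fold change and 3 at an adjusted p under 0.01. It was 8 with DESeq2 (adding *Spock1*, *Chst2* and *Chst15*), where 5.03% of all genes were higher. With the Y-linked covariate it was 1 (0.532% of all genes), in replicates 5 and 6 alone 1 (0.529%) and without mutant replicates 2 and 6 it was 3 (1.78%). It was 6 with the replicate number as a block (4.59%), which added *Chst2* and changed no other call of a member. With the replicate set as a term it was 7 (4.83%), which added *Gpc6* and *Spock1*. Leaving out single embryos gave 3 to 6, with 3 (*Chst11*, *Hpse*, *Spock3*) without mutant replicate 2 or 4 or *Rreb1*+/+ replicate 3, 5 or 6. The count of members lower was 0 in all of these. For the 2-fold change, the adjusted p under 0.01 and single embryos left out, the share of all genes is not given. Those counts therefore do not tell a change in the members from a change in all genes. Over the 23 genes examined, 503 of 552 values kept their side of the threshold, 42 lost the call, 7 gained it and 0 called values reversed. The 23 include genes far from the threshold, such as *Gpc3* and *Sdc4*, whose kept values say little. A change of sign in a gene not called was not counted, as for *Hs3st1* (0.39, and −0.60 without mutant replicates 2 and 6). *Extl2* and *Hs3st3b1* were called in 14 and 11 of 24 alternatives.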
